A study of Mus musculus with 41 samples.

Results

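Bone marrow-derived macrophages (BMDM) were profiled for lactylation of lysine 18 of histone H3 (H3K18la) and for acetylation of lysine 27 (H3K27ac), and the positions of the 2 marks are compared here. Overlapping peaks of the 2 lists were merged into 22351 regions. The 24 peak lists of the series hold 545737 peaks in all. Each region was classed as carrying both marks, H3K18la only or H3K27ac only, an overlap of 1 bp being enough. A region was a promoter region when it lay within 2000 bp of an annotated transcription start site (TSS), and a distal region otherwise.

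The series used CUT&Tag, in which an antibody guides a transposase to cut and tag the DNA beside a histone post-translational modification (hPTM), in 41 samples of mouse cells and tissues. The BMDM were cells of C57BL/6 mice, labelled as control and grown in DMEM. Marrow precursors had been cultured with M-CSF, the growth factor that turns them into macrophages, and nuclei were used for the assay. Sodium butyrate, an inhibitor of histone deacetylases, was in the buffers of both libraries. Each mark has 1 BMDM library, so no difference below has a replicate check and no test was run. The intervals given are 95% Wilson intervals, which cover counting error only.

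Histone lactylation is an acylation that draws on lactate, the end product of glycolysis, and was first described in macrophages. H3K27ac is deposited by the acetyltransferases p300 and CBP at active promoters and enhancers. Macrophage enhancers are laid out by PU.1 (encoded by Spi1) together with C/EBP, AP-1, RUNX and IRF factors, whereas promoters of broadly used genes are mostly rich in CpG dinucleotides. In a bulk profile, fewer cells with a mark and less of the mark per cell cannot be told apart.

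The leading region of each class shows the kind of sequence that the classes hold. The first region by rank in its class was taken, leaving out regions also called for H3K27me3, repeats and exons. For each, 200 bases around the point of highest signal are printed from the plus strand of the mm10 genome, with CpG dinucleotides in capitals.
Both marks, promoter, Zfp36 (chr7:28382898-28383097): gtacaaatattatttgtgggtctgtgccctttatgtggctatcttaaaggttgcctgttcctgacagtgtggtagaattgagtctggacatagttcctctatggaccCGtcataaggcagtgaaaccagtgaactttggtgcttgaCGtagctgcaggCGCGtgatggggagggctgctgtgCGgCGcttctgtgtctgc
Both marks, distal, nearest to Ccr1 (chr9:123931928-123932127): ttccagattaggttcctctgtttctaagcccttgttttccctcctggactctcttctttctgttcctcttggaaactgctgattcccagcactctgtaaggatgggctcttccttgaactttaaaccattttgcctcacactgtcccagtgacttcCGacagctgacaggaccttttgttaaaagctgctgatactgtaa
H3K18la only, promoter of the noncoding Gm40375, nearest coding gene Ccdc71l (chr12:32435143-32435342): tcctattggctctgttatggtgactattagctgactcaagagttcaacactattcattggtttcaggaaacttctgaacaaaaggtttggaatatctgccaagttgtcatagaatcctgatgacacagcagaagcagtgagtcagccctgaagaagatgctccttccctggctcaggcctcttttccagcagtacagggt
H3K18la only, distal, nearest to Nt5e (chr9:88273412-88273611): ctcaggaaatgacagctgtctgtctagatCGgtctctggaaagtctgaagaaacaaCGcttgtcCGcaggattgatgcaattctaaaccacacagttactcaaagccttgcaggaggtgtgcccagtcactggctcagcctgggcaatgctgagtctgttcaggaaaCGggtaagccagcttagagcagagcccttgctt
H3K27ac only, promoter, Gadd45b (chr10:80929611-80929810): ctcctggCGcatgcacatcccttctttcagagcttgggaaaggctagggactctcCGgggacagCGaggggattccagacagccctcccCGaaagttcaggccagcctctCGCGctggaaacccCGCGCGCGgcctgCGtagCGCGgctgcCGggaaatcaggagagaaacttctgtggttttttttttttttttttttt
H3K27ac only, distal, in an intron nearest to Tnfaip2 (chr12:111457822-111458021): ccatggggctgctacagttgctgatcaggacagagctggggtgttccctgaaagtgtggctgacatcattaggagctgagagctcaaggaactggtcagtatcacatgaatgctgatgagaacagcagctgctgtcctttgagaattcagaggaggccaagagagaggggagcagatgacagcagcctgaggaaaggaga
The Gadd45b window, upstream of the TSS of a stress-response gene, holds 14 CpG. The Zfp36 window holds 6, the Nt5e window 4, the Ccr1 window 1, and the Gm40375 and Tnfaip2 windows none. The Zfp36 window lies in an intron, 2745 bp upstream of the nearest coding TSS, in a region of 16331 bp that reaches the Zfp36 promoter. Its bases and CpG count are therefore not those at the Zfp36 TSS.

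The H3K18la list held more and narrower peaks than the H3K27ac list. H3K18la had 19571 peaks with a median width of 916 bp (quartiles 663 and 1346), which covered 22.6 Mb. H3K27ac had 12884 peaks with a median width of 2137 bp (1673 and 2903), which covered 32.8 Mb. The ratio of the median widths, H3K27ac to H3K18la, was thus 2.33 in BMDM, against 0.592 in post-ischemia macrophages (PIM). It was 0.972 in adipocytes (ADIPO), 1.67 in gastrocnemius muscle (GAS) and 0.54 in serum-cultured embryonic stem cells (mESC-ser), so neither mark had the wider peaks in all 5 cell types. Total signal, the fragment coverage summed over the bases of a peak, is not scaled for depth. It was therefore used only to rank peaks within a list, where percentile 100 is the strongest peak.

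The cells carried the marks of macrophages. All 14 macrophage markers used for naming the cells, among them Spi1, Csf1r (the M-CSF receptor), Adgre1 (F4/80) and Lyz2 (lysozyme), had both an H3K18la and an H3K27ac peak at a promoter. Markers and lists were chosen with earlier results of these data known. Other macrophage genes lacked a mark, among them Marco (neither), Mrc1 and Cx3cr1 (H3K18la only) and Maf (H3K27ac only). Of all protein-coding genes, 18.5% had an H3K18la peak, 34.0% an H3K27ac peak and 16.4% both. For 12 of the 14 markers, a distal H3K18la region also lay nearer to them than to any other coding gene, and 1 of the 14 had an H3K27me3 peak. Markers of other cells were mostly unmarked. H3K18la lay at 4 of 14 neutrophil markers, 1 of 10 B cell, 2 of 12 T and NK cell, 2 of 12 erythroid and megakaryocyte, 3 of 9 dendritic cell and 1 of 15 stroma and endothelium markers. It lay at 1 of 14 muscle markers, 1 of 12 stem cell markers, and at none of the 8 mast cell and basophil or the 12 neuron markers. H3K27ac lay at 1, 2, 2, 2, 2, 2, 0, 0, 0 and 0 of these lists in the same order, and H3K27me3 at 10 of the 12 neuron and 9 of the 12 stem cell markers, against 19.2% of all coding genes. The neutrophil markers with H3K18la were Csf3r with both marks, and Ltf (lactoferrin), Mmp8 and S100a8 with H3K18la only, Ltf at percentile 90.6 of the H3K18la list. The dendritic cell markers Tcf4 and Clec9a and the platelet factor gene Pf4 had both marks, at percentiles 94.5, 92.9 and 96.2 of H3K18la. Their part in the results was not tested.

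The first question was how far the 2 marks occupy the same regions. Of the 9379 promoter regions, 4107 (43.8%, interval 42.8 to 44.8) carried both marks, 3714 (39.6%, 38.6 to 40.6) H3K27ac only and 1558 (16.6%, 15.9 to 17.4) H3K18la only. Of the 12972 distal regions, 7945 (61.2%, 60.4 to 62.1) carried H3K18la only, 4366 (33.7%, 32.8 to 34.5) both and 661 (5.1%, 4.73 to 5.49) H3K27ac only. Put the other way, 84.9% of the H3K27ac-only regions, 48.5% of the regions with both marks and 16.4% of the H3K18la-only regions were promoter regions. The excess of H3K27ac-only promoters depended on list size. With the H3K27ac list reduced by total signal to the 22.6 Mb of the H3K18la list, H3K18la-only exceeded H3K27ac-only promoter regions by 12.8 percentage points, where the full lists gave -23.0. With equal peak numbers the difference was -46.7. The share of distal regions with both marks also moved, to 18.3% with equal bases and 43.8% with equal peak numbers.

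**Figure D1:**
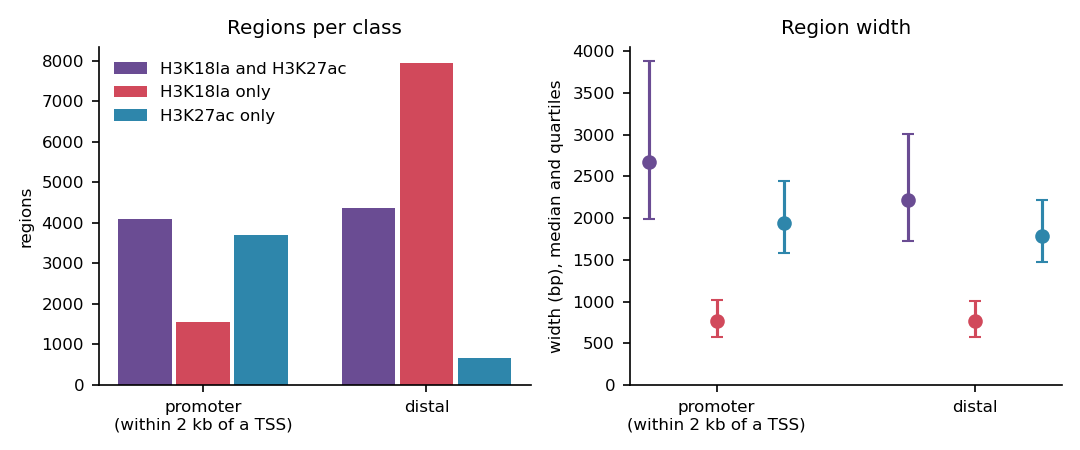
Number of regions (left) and region width in bp (right, points are medians and bars are quartiles) for regions with both marks, H3K18la only and H3K27ac only, promoter and distal apart. The 7945 distal H3K18la-only regions form the largest class, and H3K18la-only regions are the narrowest, with medians of 767 bp at promoters and 763 bp in distal positions.

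The same classes were found in other cell types in other proportions. Distal H3K18la-only regions made up 59.3% of the distal regions in PIM, 43.9% in ADIPO, 35.4% in GAS and 63.9% in mESC-ser. H3K27ac-only regions made up 39.6% of promoter regions in BMDM and 24.4% in PIM, 13.5% in ADIPO, 35.1% in GAS and 26.1% in mESC-ser. BMDM thus had the highest of the 5 values for H3K27ac-only promoters, in lists of unlike size.

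Shared peaks were wider than unshared ones, with median widths of 1168 bp and 763 bp for H3K18la and of 2296 bp and 1923 bp for H3K27ac. Regions with both marks, which join peaks and so are the wider by construction, had a median width of 2676 bp at promoters and 2220 bp in distal positions, against 1946 bp and 1788 bp for H3K27ac only. Within the 8473 shared regions, H3K18la lay mostly inside H3K27ac. Of the H3K18la bases, 92.9% were covered by H3K27ac, whereas 57.2% of the H3K27ac bases were covered by H3K18la. H3K18la was the wider mark in 11.7% of shared regions, in 6.18% of those at promoters and in 17.0% of the distal ones. A single peak of each mark made up 84.2% of shared regions, and in 15.6% an H3K27ac domain held 2 or more H3K18la peaks, up to 6. The 1-bp rule mattered little, since the shared bases were under 50% of the narrower mark in 24 regions only, and the smallest overlap was 8 bp.

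Where a region held 1 peak of each mark, the points of highest signal were close together. They lay a median of 68 bp apart (quartiles 26 and 151) in 3794 distal regions and 99 bp apart (39 and 275) in 2324 promoter regions within 2000 bp of a coding TSS. H3K18la was further downstream in 43.8% of these promoters and in 49.1% of the distal regions, so neither mark was shifted by much. Relative to coding TSS, H3K27ac-only peaks were the most centred, with 88.4% of 3376 within 500 bp. The corresponding share was 79.0% of 2825 H3K27ac peaks and 68.1% of 3249 H3K18la peaks in regions with both marks, and 50.6% of 589 H3K18la-only peaks.

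Shared peaks were stronger than unshared peaks in both lists. In all, 51.4% of H3K18la peaks (50.7 to 52.1) overlapped an H3K27ac peak, and 66.0% of H3K27ac peaks (65.2 to 66.9) overlapped an H3K18la peak. Among distal H3K18la peaks the share was 12.1% in the weakest decile of the list and 93.8% in the strongest, and at promoters it was 57.9% and 97.6%. Among promoter H3K27ac peaks it was 24.9% and 96.5%, and among distal H3K27ac peaks 70.3% and 100%. Of the 1000 strongest peaks, 977 of H3K18la and 990 of H3K27ac were shared. Unshared peaks therefore came mainly from the weaker part of each list, with median percentiles of 34.3 for H3K18la and 34.8 for H3K27ac. Signal that misses the caller's threshold is not in a peak list, so an H3K18la-only region is one without a called H3K27ac peak, and the presence of weaker H3K27ac there was not tested. The study's quality table lists more reads for the H3K18la than for the H3K27ac library, and the part of depth in the unequal lists was not tested.

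**Figure D2:**
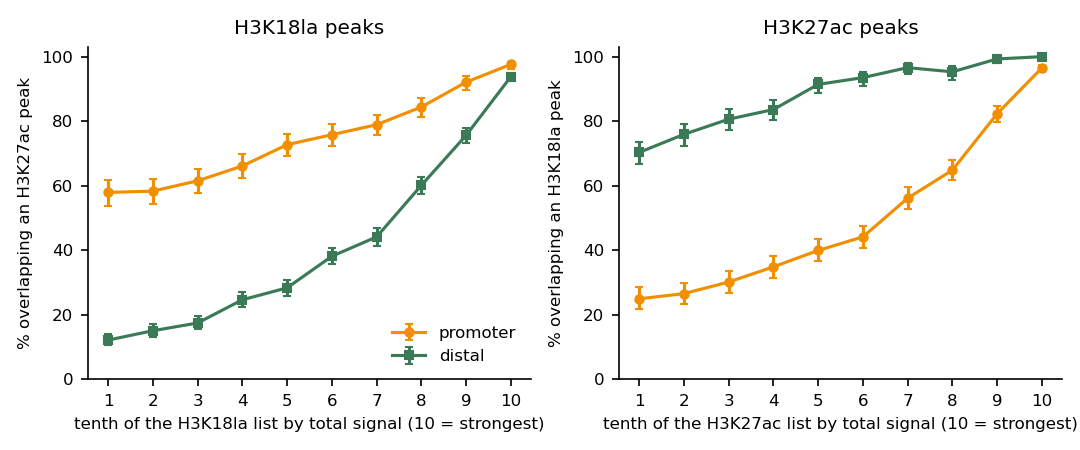
Share of H3K18la peaks overlapping an H3K27ac peak (left) and the reverse (right), in %, by decile of total signal within the list (10 is the strongest), for promoter (circles) and distal peaks (squares), with 95% Wilson intervals. Promoter and distal shares lie close together in the strongest decile and apart in the weakest, 57.9% against 12.1% for H3K18la and 24.9% against 70.3% for H3K27ac.

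The strength of the 2 marks was related over shared regions, more so at distal sites. Spearman's rho of total signal was 0.573 over 4366 distal and 0.466 over 4107 promoter regions, and 0.401 over all 8473. The regions of a list share a library, total signal grows with width, and rho of signal per base was 0.405 at distal and 0.171 at promoter regions. The rank of a region also depended on its place. Distal shared regions had a median percentile of 78.2 for H3K18la and 47.3 for H3K27ac, and promoter shared regions 60.6 and 72.3. Both marks were above percentile 90 in 658 regions. H3K18la was above 90 with H3K27ac below 50 in 280, of which 219 were distal. The opposite case held in 86 regions, of which 81 were promoters.

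Most unshared regions lay far from the nearest peak of the other mark. The median distance of distal H3K18la-only regions to the nearest H3K27ac peak was 17645 bp (quartiles 4295 and 66236), and 8.14% lay within 1000 bp of one. H3K27ac-only promoter regions lay a median of 39074 bp from the nearest H3K18la peak, with 1.86% within 1000 bp. The shortest distance was 1 bp, in all of the single-mark classes but distal H3K27ac only, where it was 7 bp. Distal H3K18la-only regions were centred in introns in 48.1% and between genes in 49.6%, a median of 34111 bp from the nearest coding TSS. The distal regions with both marks lay nearer, at 24800 bp, and those with H3K27ac only nearer still, at 15280 bp.

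The sequence at the point of highest signal differed between the classes. In 300-bp windows there, the median GC content was 63.0% at H3K27ac-only promoters, 53.7% at promoters with both marks and 47.3% at H3K18la-only promoters. CpG-rich windows were those in which G and C made up 50% of the bases or more and CpG reached 0.6 of the number that base composition predicts. This held for 71.8% of H3K27ac-only promoters, 34.0% with both marks and 5.97% with H3K18la only. The points of highest signal lay a median of 107 bp, 566 bp and 5619 bp from the nearest coding TSS, in the same order. The part of this distance in the CpG-rich shares was not tested. By gene, in 1000 bp around the TSS, the shares given below kept this order but lay closer together. Distal windows were CpG-rich in 7.26%, 1.67% and 0.604%. For regions with both marks the window was centred on H3K18la. H3K27ac-only and shared promoters also differed within parts of the H3K27ac list, although ranks inside each part were not matched. In the top 20% of the H3K27ac list, 74.9% of 183 H3K27ac-only and 35.7% of 1596 shared promoters were CpG-rich, and in the lowest 20% 64.0% of 964 and 14.2% of 337.

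In promoter regions, letters of macrophage factor motifs were more frequent where H3K18la lay, and those of promoter factors where H3K27ac lay alone. The windows were matched neither for GC content nor for distance from a coding TSS, and the part of either was not tested. In distal regions PU.1, RUNX and IRF letters had overlapping intervals in the classes with a single mark. Each motif was searched as fixed letters on both strands of the 300-bp windows. The AP-1 letters TGANTCA were in 34.1% (32.7 to 35.5) of distal windows with both marks, 27.2% (26.3 to 28.2) with H3K18la only and 20% (17.1 to 23.2) with H3K27ac only. At promoters the shares were 18.7%, 23.9% and 5.2%, beside 22.9% of all windows and 7.85% of RefSeq promoters of 300 bases. The PU.1 letters GAGGAAGT were in 13.2%, 9.79% and 10.4% of distal and 9.57%, 10.2% and 4.2% of promoter windows in the same order, against 9.53% of all windows and 3.22% of RefSeq promoters. C/EBP letters (TTGCNNAA) were in 19.8%, 19.4% and 14.5% of distal and 14.1%, 17.9% and 7.27% of promoter windows, against 16.2% of all windows and 10.9% of RefSeq promoters. IRF letters (GAANNGAAA) were in 15.6%, 12.7% and 10.7% of distal and 10.3%, 13.1% and 7.03% of promoter windows, against 11.9% and 7.55%. Thus for each of these 4 factors, H3K27ac-only promoters had the lowest share of the 6 classes.

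At H3K27ac-only promoters the SP/KLF box GGGGCGGGG was in 16.7% of windows (15.6 to 18) and the ETS letters CCGGAAGT in 9.05% (8.17 to 10.0). The shares at promoters with both marks were 10.4% and 4.02%, and with H3K18la only 2.18% and 0.963%. Over all windows they were 5.33% and 2.68%, and over RefSeq promoters 11.5% and 3.91%. YY1 (AAGATGGCG) and NRF1 (GCGCATGCG) letters followed the same order, with 4.44%, 1.27% and 0.193% for YY1 and 3.82%, 1.56% and 0.321% for NRF1. All windows held YY1 letters in 1.1% and NRF1 letters in 1.03%, and RefSeq promoters in 1.4% and 1.75%. The PU.1 and ETS letters share the run GGAAGT but cannot match at the same place, whereas matches of other motifs may overlap. RUNX letters (TGTGGTTA) were in 0.619% of H3K27ac-only promoters and in 1.49% to 2.77% of the other classes, beside 2.01% of all windows and 0.757% of RefSeq promoters. NFY (CCAATCAG), the M-box TCACGTGA and the CTCF core AGGGGGCGC were most frequent at H3K27ac-only promoters, at 4.63%, 2.07% and 1.4%, against 2.17%, 0.783% and 0.47% of all windows. RefSeq promoters held them in 4.11%, 0.981% and 1.25%.

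The first region by rank with a match within 50 bases of the summit is shown for 1 motif in each of 3 classes, to show how a match lies in its surroundings. Matches are in capitals, and these motifs are not always the most frequent of their class.
Both marks, distal, nearest to Ifngr2, PU.1 letters (chr16:91522147-91522246): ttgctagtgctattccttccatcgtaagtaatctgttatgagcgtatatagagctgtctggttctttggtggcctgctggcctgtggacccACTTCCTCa
H3K18la only, distal, in an intron nearest to Tes, AP-1 letters (chr6:17109340-17109439): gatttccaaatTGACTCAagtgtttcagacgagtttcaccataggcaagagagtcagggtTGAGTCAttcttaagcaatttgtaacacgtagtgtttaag
H3K27ac only, promoter, Sugt1, ETS letters (chr14:79587236-79587335): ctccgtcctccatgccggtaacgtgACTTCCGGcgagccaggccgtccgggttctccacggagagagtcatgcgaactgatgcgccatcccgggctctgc
Ifngr2 encodes a chain of the interferon gamma receptor. The Tes window holds 2 AP-1 matches and has a GC content of 39.0%, and the Sugt1 window has 66.0%.

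**Figure D3:**
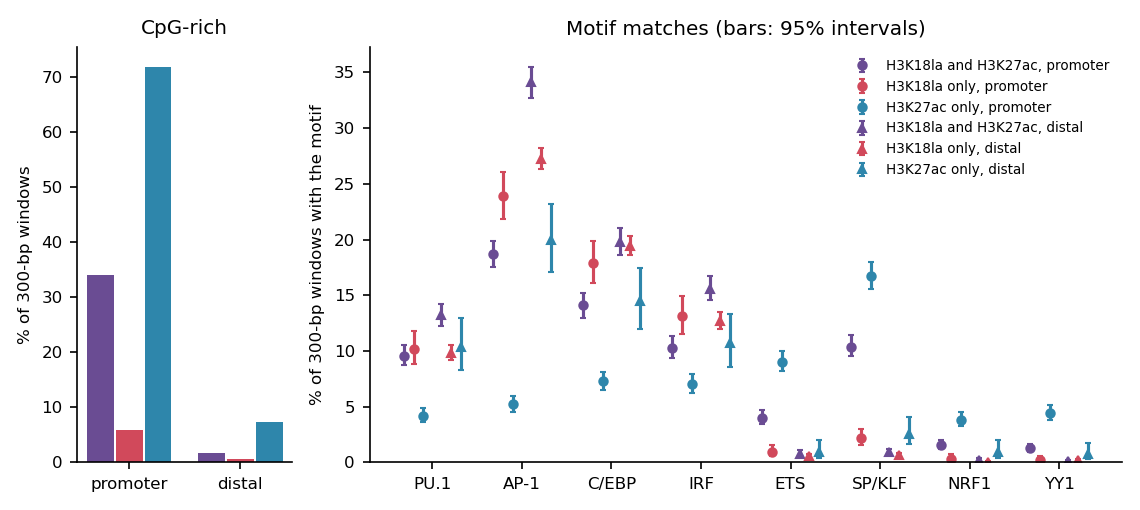
Share of 300-bp windows that are CpG-rich (left) and that hold a motif (right), in %, by class; circles are promoter and triangles distal regions, and bars are 95% Wilson intervals. PU.1, AP-1, C/EBP and IRF letters are least frequent at H3K27ac-only promoters (4.2%, 5.2%, 7.27% and 7.03%), where SP/KLF letters reach 16.7%.

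Lists that the classes did not use were laid over the regions. PIM, macrophages from muscle after ischemia, marked most of the same places. In 500-bp windows at the summit, PIM H3K18la covered 95.6% of distal regions with both marks, 65.2% with H3K18la only and 77.5% with H3K27ac only, while the list covers 2.62% of the genome. PIM H3K27ac covered 71.7%, 25.4% and 54.8% of these windows, and PIM H3K4me3 70.1%, 25.8% and 54.0%. At promoters PIM H3K27ac covered 93.1% of H3K27ac-only and 36.3% of H3K18la-only windows, and PIM H3K18la 63.2% and 69.0%. Each single-mark class had its own mark in PIM more often than the other mark, except that distal H3K27ac-only regions had PIM H3K18la more often than PIM H3K27ac. The PIM H3K27ac list covers less of the genome (1.04%) than the PIM H3K18la list and comes from 1 library, whereas the authors combined libraries for PIM H3K18la, so these shares are not on a par. Only 32 of the 661 had H3K27ac without H3K18la in PIM, whereas 3234 of the 7945 distal H3K18la-only regions had H3K18la without H3K27ac there.

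Stronger regions recurred more often. Among distal H3K18la-only regions, PIM H3K18la overlapped 47.9% of 2360 in the lowest 20% of the list and 93.4% of 424 in the top 20%. For distal regions with both marks in the same parts of the list the shares were 87.3% of 189 and 98.2% of 2052. PIM H3K27ac overlapped 14.9% and 48.3% of the H3K18la-only regions and 59.3% and 83.8% of those with both marks. More of the shared than of the unshared distal peaks in the upper part stood in the strongest decile, and distal regions with both marks were wider as a class, so neither rank nor width was matched.

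**Figure D4:**
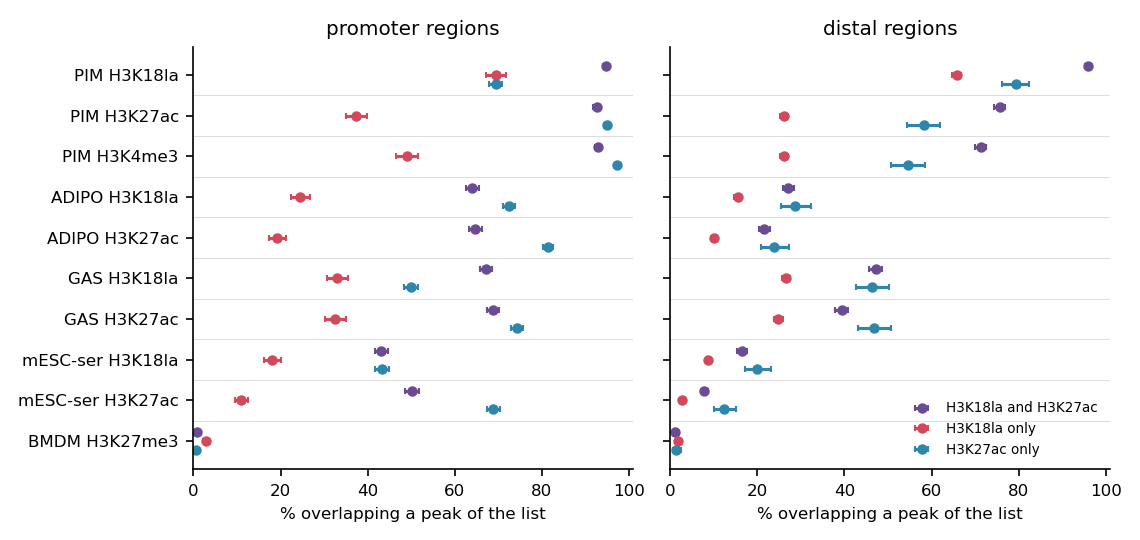
Share of promoter (left) and distal (right) regions of each class, in %, that overlap a peak of 10 lists not used to define the classes; bars are 95% Wilson intervals. In distal positions PIM H3K18la overlaps 95.9% of regions with both marks and 65.8% with H3K18la only, and the BMDM H3K27me3 list overlaps at most 2.89% of any class.

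The H3K27ac-only promoters were the most widely used across cell types. A region was counted in ADIPO, GAS or mESC-ser when either mark had a peak there. All 3 cell types marked 60.4% of H3K27ac-only promoters, 49.0% of promoters with both marks and 9.11% with H3K18la only. In distal positions all 3 marked 11% of H3K27ac-only regions, 8.25% with both and 2.57% with H3K18la only. None of the 3 marked 56.7% of distal H3K18la-only regions, and 33.8% of the class was marked in PIM but in none of the 3. Marking in PIM and in none of the 3 held for 34.3% of distal regions with both marks. A further 1820 distal H3K18la-only regions (22.9%) were marked in none of these other cell types. The repressive mark H3K27me3 covered 3.75% of the genome in BMDM and overlapped 0.565% to 2.89% of the classes, with the highest value at H3K18la-only promoters.

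By gene, 3559 of 21728 protein-coding genes (16.4%) had both marks at a promoter, 3832 (17.6%) H3K27ac only and 467 (2.15%) H3K18la only. H3K18la was thus at 18.5% of genes and H3K27ac at 34.0%, and 13870 genes had neither. The strongest peaks of the 2 marks overlapped each other in 90.1% of the genes with both, and lay apart in 351. PIM H3K4me3, a promoter mark, was at 98.8% of genes with both marks, 99.7% with H3K27ac only, 81.6% with H3K18la only and 37.4% with neither. By the same limits in 1000 bp around the TSS, a CpG-rich promoter was present in 75%, 83.4%, 40.7% and 35.1% of these genes. H3K27me3 was at 21.6% of genes with H3K18la only, against 4.75% with both, 3.16% with H3K27ac only and 27.3% with neither. PIM H3K18la was at 94.9% of genes with both marks, 76.9% with H3K18la only, 70.0% with H3K27ac only and 13% with neither. Genes with H3K18la at the promoter also had more H3K18la around them. A distal H3K18la region was nearest to 42.9% of genes with both marks, 48.0% with H3K18la only, 20.2% with H3K27ac only and 14.1% with neither.

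Both marks lay at most genes of the macrophage transcription factor and receptor lists, against 16.4% of all coding genes, and at fewer in the cytokine (37.8%), interferon (38.5%) and lipid (46.2%) lists. Of 22 macrophage transcription factors, 20 had both and 2 (9.09%, against 17.6% of all coding genes) had H3K27ac only, Maf at percentile 56.2 and Mitf at 53.5. Spi1, which encodes PU.1, had an H3K18la peak of 7492 bp (chr2:91081094-91088585, total signal 628279, percentile 99.5) inside an H3K27ac peak of 8797 bp (chr2:91079926-91088722, percentile 99.6). Runx1 stood at percentile 98.3 for H3K18la and 96.9 for H3K27ac, Zeb2 at 96.8 and 98.1, and Irf5 at 95.7 and 99.7. Distal regions were many at some of these genes. Runx1 was nearest to 8 regions with both marks and 19 with H3K18la only, and Klf4 to 3 and 14.

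Of 35 macrophage receptors and effectors, 30 (85.7%, against 16.4% of all coding genes) had both marks and 1, the scavenger receptor Marco, neither. H3K18la only was at 4 (11.4%, against 2.15% of all coding genes) and H3K27ac only at none (against 17.6%). The 4 were Cx3cr1 (the fractalkine receptor, percentile 76.4 of H3K18la), Mrc1 (the mannose receptor, 67.5), Fcgr2b (the inhibitory Fc receptor, 56.9) and Ctss (cathepsin S, 38.0). All 4 had at least 1 distal region with both marks nearest to them. The strongest with both were Sirpa (percentiles 99.2 for H3K18la and 99.7 for H3K27ac), C3ar1 (98.8 and 96.1), Cd14 (98.8 and 98.0) and Csf1r (98.1 and 99.6). Itgam, the integrin chain CD11b, ranked far higher for H3K18la (92.5) than for H3K27ac (13.1). P2ry12 did so too (70.2 and 2.02), but its peaks lie apart from each other, at different TSS.

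Toll-like receptor signalling, which senses microbial products, had both marks at 24 of 36 genes (66.7%, against 16.4% of all coding genes) and neither at 5. H3K27ac only was at 7, a share of 19.4% near the 17.6% of all coding genes. Tlr13 (percentile 99.1 of H3K18la), Tlr2 (98.3), Tlr6 and Irak2 led, with the strongest peaks of the 2 marks apart at Irak2. The H3K27ac-only genes were Chuk, Map3k7, Nfkbie, Tab1, Ticam2, Tlr3 and Traf6, and 5 of the 7 had H3K18la in PIM, near the 70.0% of all H3K27ac-only genes. Among them Nfkbie, an inhibitor of NF-kB, had a strong H3K27ac peak (4540 bp, percentile 96.3), and Tlr3 a weak one.

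Cytokine, chemokine and inflammatory enzyme genes held the largest number of H3K18la-only promoters among these lists. Both marks were at 14 of 37 genes, H3K18la only at 8 (21.6%, against 2.15% of all coding genes), H3K27ac only at 1 (Ptgs2) and neither at 14. The 8 were Ccl2 (percentile 79.5 of H3K18la, maximum signal 435), Ptgs1 (64.6), Il6 (63.3), Ccl7 (61.8), Cxcl3 (56.9), Alox5 (28.8), Cxcl1 (12.6) and Nos2 (1.09). Alox5, Nos2 and Ptgs1 also had an H3K27me3 peak at a promoter. Of the monocyte chemoattractants, Ccl2 was nearest to 3 distal regions with both marks and 2 with H3K18la only. Genes with both marks included Cxcl2 (96.3 for H3K18la and 89.5 for H3K27ac) and Il1b (95.6 and 88.3), followed in total H3K18la signal by Ccl3 and Alox5ap. Tnf stood at 57.9 and 89.4.

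Interferon response genes had H3K27ac only more often than the cytokine genes did. Of 39 genes, 15 had both marks (38.5%, against 16.4% of all coding genes), 18 (46.2%, against 17.6%) H3K27ac only, none H3K18la only (against 2.15%) and 6 neither. Of the 33 genes with H3K27ac, 45.5% also had H3K18la, near the share over all coding genes, 3559 of 7391. The strongest of the 15 was Ifngr2 (percentile 96.9 of H3K18la), followed by Ifi204, Ifngr1 and Isg20. The 18 included Irf1 (percentile 86.8 of H3K27ac), Oas3 (78.5) and Ifih1 (76.2), 3 genes chosen after their values were seen. In PIM, 16 of the 18 had an H3K18la peak at a promoter, beside 70.0% of all H3K27ac-only genes.

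Genes of repair and alternative activation had both marks at 16 of 30 (53.3%, against 16.4% of all coding genes), H3K18la only at 3 (10%, against 2.15%), H3K27ac only at 1 (3.33%, against 17.6%) and neither at 10. Among the 3 were Mmp9 (percentile 64.3) and Cd163 (27.4), and the 1 was Egr2 (77.3 of H3K27ac). Mmp9 and Egr2 also had an H3K27me3 peak. The leading genes with both were Lgals3 (96.2 and 99.4, at different TSS), Igf1 (91.8 and 95), Mmp12 and Il4ra. Thbs1, with both marks, had the most distal H3K18la-only regions of all genes, 26. For MHC class II and costimulation, 7 of 12 genes had both marks (58.3%, against 16.4% of all coding genes), led by Cd83 (95.9 and 99.4), Cd80, H2-DMa and Cd86. The strongest peaks of the 2 marks lie apart at Cd80 and Cd86. H2-Eb1 had H3K18la only (8.33%, against 2.15%), and Ciita and H2-DMb1 had neither. Cd40 and H2-Aa had H3K27ac only, a share of 16.7% near the 17.6% of all coding genes.

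**Figure D5:**
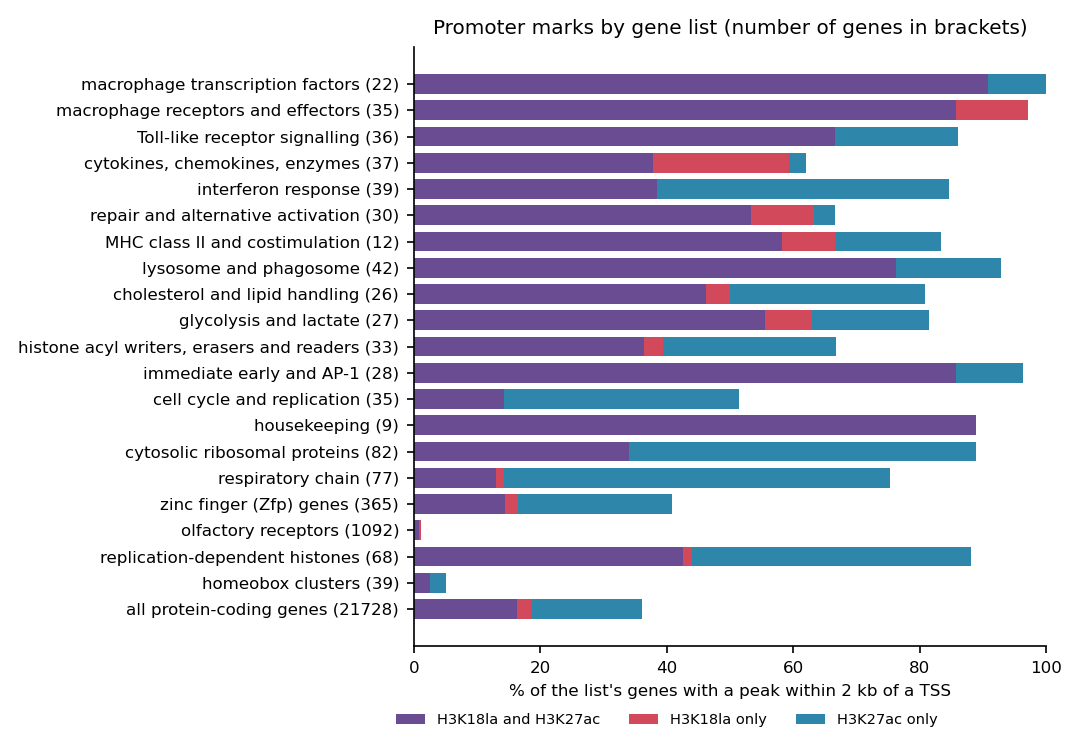
Share of the genes of each list, in %, with both marks, H3K18la only or H3K27ac only within 2 kb of a TSS; the rest of each bar's range to 100% is genes with neither, and the last bar is all 21728 protein-coding genes. Macrophage lists are mostly marked by both, whereas 61.0% of respiratory chain genes carry H3K27ac only.

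Lysosome and phagosome genes, which degrade what macrophages take up, had both marks at 32 of 42 (76.2%, against 16.4% of all coding genes) and neither at 3. H3K27ac only was at 7, a share of 16.7% near the 17.6% of all coding genes. Ctsz (percentiles 95.4 and 99.5) led, with Grn and Ctsc also among the strongest, and Ctsb had an H3K18la peak of 1447 bp within an H3K27ac peak of 15179 bp (percentile 99.9). The 7 were Atp6v0b, Atp6v1b2, Atp6v1e1, Atp6v1h, Ctsa, Cyba and Lipa, all with H3K18la in PIM (70.0% of all H3K27ac-only genes). Cyba, a subunit of the NADPH oxidase, ranked at percentile 98.2 of H3K27ac. Cholesterol and lipid genes had both marks at 12 of 26 (46.2%, against 16.4% of all coding genes), led by Soat1, Plin2, Abca1 and Lrp1. H3K18la only was at Fabp4 (3.85%, against 2.15%). H3K27ac only was at 8 (30.8%, against 17.6%), namely Abcg1, Apoe, Dgat1, Hmgcs1, Nr1h2, Pnpla2, Scarb1 and Srebf1.

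Of 27 genes of glycolysis and lactate transport, 15 had both marks (55.6%, against 16.4% of all coding genes), 2 H3K18la only (Gpi1 and Ldhb) and 5 neither. H3K27ac only was at 5 (Hk1, Pfkl, Pfkm, Slc2a6 and Tpi1), a share of 18.5% that is near the 17.6% of all coding genes. Slc2a6, a glucose transporter, was among the strongest H3K27ac-only promoters of all (4705 bp, percentile 96.1). Ldha, which makes lactate from pyruvate, had its H3K18la peak at percentile 65.3 and its H3K27ac peak at 38.2, at different TSS. Histone acyl writers, erasers and readers had both marks at 12 of 33 (36.4%, against 16.4% of all coding genes) and neither at 11. H3K18la only was at 1 (Sirt1, percentile 3.59), a share of 3.03% near the 2.15% of all coding genes. H3K27ac only was at 9 (27.3%, against 17.6%). Ep300, which encodes p300, had a weak H3K18la peak (percentile 8.68) within a stronger H3K27ac peak (67.9). Among the 9 were Aars, Acly, Acss2, Brd3, Crebbp, Hdac1, Hdac3 and Kat6a. The leading genes with both were Brd2 (81.9 and 99.1), Sirt3, Hdac2 and Kat6b. Brd2 rests on the same peak of each mark as H2-DMa, and at Sirt3 the strongest peaks of the 2 marks lie apart.

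Immediate early and AP-1 genes had both marks at 24 of 28 (85.7%, against 16.4% of all coding genes) and neither at 1. H3K27ac only was at 3 (Egr3, Ier5 and Maff), a share of 10.7%, against 17.6% of all coding genes. Zfp36, which marks cytokine mRNAs for decay, had percentiles of 99.8 and 100, Junb 99.3 and 100, Klf6 99.1 and 99.9, and Dusp1 98.6 and 99.5. Klf6 was nearest to 12 distal regions with both marks and 15 with H3K18la only. Housekeeping genes had both marks at 8 of 9 (88.9%, against 16.4%).

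With the full lists, H3K27ac alone was at 17.6% of all coding genes and both marks at 16.4%. H3K27ac alone was also more frequent than both marks in the respiratory chain, ribosomal protein and cell cycle lists. Of 77 respiratory chain genes, 47 (61.0%) had H3K27ac only, 10 (13%) both, 1 (Ndufa5) H3K18la only and 19 neither. Of 82 cytosolic ribosomal protein genes, 45 (54.9%) had H3K27ac only and 28 (34.1%) both, the strongest being Rps14, Rps23, Rpl7 and Rpl21. At Rps14 the strongest peaks of the 2 marks lie apart. The strongest respiratory genes with both were Uqcrh, Ndufa4, Atp5j and Sdhb, with the strongest peaks apart at Sdhb. Cell cycle genes had H3K27ac only at 13 of 35 (37.1%) and both at 5, namely Cdk4, Cdkn1a, Cdkn1b, E2f2 and Pcna. Replication-dependent histone genes, which lie in clusters and share peaks, had H3K27ac only at 30 of 68, both at 29 and H3K18la only at 1 (Hist1h4b). H3K18la was found in PIM at 28 of the 47 respiratory, 18 of the 45 ribosomal and 27 of the 30 histone genes with H3K27ac only in BMDM. The first and second of these shares lie below the 70.0% of all H3K27ac-only genes, and the last lies above it.

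Numbered zinc finger genes had both marks at 53 of 365 (14.5%, against 16.4% of all coding genes), H3K27ac only at 89 (24.4%, against 17.6%) and H3K18la only at 7 (1.92%, against 2.15%). The 7 were Zfp13, Zfp281, Zfp318, Zfp41, Zfp532, Zfp932 and Zfp975, all with peaks of 823 bp or less. Of 1092 olfactory receptor genes, 9 had both marks (0.824%) and 4 H3K18la only (0.366%), namely Olfr1507, Olfr1509, Olfr550 and Olfr794. The strongest of the 9 by H3K18la was Olfr111 (percentiles 93.3 and 92.3). Of 39 Hox genes, 36 had H3K27me3, 1 had both active marks and 1 (Hoxb4) H3K27ac only.

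The strongest regions of each class were listed by rank. Among the 10 leading promoter regions with both marks, 5 lie at satellite-like gene models (Gm10800, Gm10717, Gm21738, Gm10801 and Gm10722) and were also called for H3K27me3. The others were at Zfp36, at noncoding transcripts near Ergic1, Cebpb and Cd69, and at the Mir23a cluster near Nanos3. Among the 10 leading distal regions with both marks, 3 short ones nearest to Chl1, Rab10 and Rpusd4 were also called for H3K27me3. The rest were nearest to Ccr1, Tomm20, Tmed10, Mcl1, Metrnl, Snx24 and 6430531B16Rik. The Ccr1 region spanned 10697 bp (chr9:123923111-123933807, ranks 17 for H3K18la and 11 for H3K27ac). Its point of highest signal lay 36664 bp from the TSS of Ccr1, a chemokine receptor gene. Without the 288 regions (1.29%) that overlapped a BMDM H3K27me3 peak, an alternative chosen after the data were seen, 43.9% of promoter and 33.8% of distal regions had both marks.

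The leading distal H3K18la-only region lay between genes near Nt5e, which encodes CD73, an enzyme that makes adenosine (chr9:88270513-88278029, rank 30 of the H3K18la list). It was 159477 bp from the nearest H3K27ac peak. Further leading regions were nearest to Galc (1181911 bp away), Zfp36l1, Vmn1r2, Ahr, Tes, Psma1, Spsb1 and Pak3. The Galc and Pak3 regions were only 365 bp and 105 bp wide, with maximum signals of 5273 and 3074, against 1380 in the Nt5e region. All of the 10 leading regions overlapped a PIM H3K18la peak and 5 a PIM H3K27ac peak, against 65.8% and 26.1% of all distal H3K18la-only regions. The leading H3K18la-only promoters were at Serpinb1b (rank 570), Nucb2, Spatc1, Mtus1, Sfi1, and noncoding transcripts near Smo, Ccdc71l, Egln3, Galnt3 and Tlk1.

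The leading H3K27ac-only promoters were Gadd45b (chr10:80928356-80936207, rank 286 of the H3K27ac list), Arl5c, Nfkbie, Slc2a6, Ppp1r18, Ddx39b, Fam76b, Borcs6, Zfand3 and Cdk12. The leading distal ones were nearest to Tnfaip2 (rank 1469), H2-D1, Fnbp1, Akna, Spryd7, Rps6ka1, Bcor, 2410131K14Rik, Mcoln2 and Tyk2. All 20 overlapped both a PIM H3K18la and a PIM H3K27ac peak. Over the whole classes, PIM H3K18la overlapped 69.5% of H3K27ac-only promoter and 79.4% of H3K27ac-only distal regions.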

How the data were processed

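CUT&Tag peak lists of 1 BMDM H3K18la and 1 BMDM H3K27ac library were compared. The authors trimmed reads with Trim Galore 0.6.6, aligned them to mm10 with Bowtie2 2.4.4, computed coverage with bedtools 2.30 and called peaks with SEACR 1.3, without a control and keeping a fixed top share of regions. The deposited columns hold signal (fragment coverage, whole numbers, not scaled for depth), summed over each peak and at its maximum. The number of reads is not in the lists, and sequencing depth was not analysed here.

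Only the 19 autosomes and X were kept, which dropped 15 H3K18la and 5 H3K27ac peaks, and regions were annotated with GENCODE M21 on the GRCm38.p6 sequence. Blacklisted regions, which the authors set aside in later steps, were not removed, and no sequence of chromosome 18 was considered for printing. Symbols shared by several genes were counted once. For lists from other cells the authors had combined replicates, except PIM H3K27ac and mESC-ser H3K27ac with 1 library each. Genes were named by a rule: members of the single-mark classes of a list where they numbered 12 or fewer, up to 4 members with both marks by total H3K18la signal, and the 10 leading regions of each class. Some members that this rule names are not reported here. The members, lists and motifs were chosen with earlier results of these data known. The overlap code was tested on simulated peaks, with bedtools 2.31.1 as the reference. Alternatives changed list size, overlap, promoter width, TSS set, joining distance and signal measure. Scripts ran in Python 3.11.15 (pandas 2.3.3, scipy 1.17.1, numpy 2.4.6).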

Additional observations from a re-analysis of the deposited data

How the results depend on the processing

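No paired analysis was possible because each mark has 1 library. The result that reversed was the difference between H3K18la-only and H3K27ac-only shares of promoter regions, -23.0 percentage points with the full lists and 12.8 with equal bases (7099 H3K27ac peaks kept of 12884). It was -46.7 with equal peak numbers, -30.7 with promoters of 1000 bp on either side, -38.0 with protein-coding TSS only and -25.9 with peaks up to 1000 bp apart joined. The distal difference stayed positive, at 56.2 with the full lists and at 32.9 (equal peak numbers), 80.4 (equal bases), 52.4 (coding TSS) and 54.1 (joined peaks). The share of promoter regions with both marks, 43.8%, was 36.1% with equal peak numbers and 45.6% with joined peaks. The distal share, 33.7%, was 43.8% with equal peak numbers, 18.3% with equal bases and 35.4% with coding TSS or with joined peaks. Of genes with either mark, 45.3% had both, against 33.0% (equal peak numbers), 50.5% (equal bases), 43.7% (promoters of 1000 bp) and 43.6% (coding TSS). The ratio of median widths was 2.33, and 1.87 with equal peak numbers. Spearman's correlation of the marks over shared regions was 0.401 for total signal, 0.34 for maximum signal and 0.206 per base. The other 13 values computed, among them all of those with an overlap of 50% of the narrower mark and all without regions called for H3K27me3, stayed within the counting interval. The 50% overlap and joined-peak settings were not run for genes, and the setting without H3K27me3 regions was chosen after seeing the data. Peak calls from 1 library each limit these comparisons, since a peak under the caller's threshold is not listed, and the unequal depth of the libraries was not adjusted for.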

Other observations

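A small number of very strong, mostly narrow regions was common to all 3 BMDM marks. In 26 regions the H3K18la maximum was above 20 times the median maximum of its list. Of these, 24 also had an H3K27ac peak and 19 an H3K27me3 peak, and the 19 had a median width of 712 bp. The 19 held 12.9% of the total H3K18la signal in peaks and 1.64% of the total H3K27ac signal. The region at Gm10800 on chromosome 2 (chr2:98666237-98667339) ranked first in both lists, with a maximum of 219876 for H3K18la and 17276 for H3K27ac, and 81.3% of its bases are repeats.

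Distal H3K18la-only regions were gathered at some genes. They were nearest to 3561 of 21728 coding genes, to 374 genes at least 5 times and to 64 genes at least 10 times. After Thbs1 with 26, the genes with most were Lpp (25), Trib1 (22), Runx1 (19) and Zfp36l1 (19). Of these 5 genes, Lpp had H3K27ac only at its promoter and the others both marks. The aryl hydrocarbon receptor gene Ahr had neither mark at its promoter but 16 such regions and 1 with both marks. No gene had more than 3 distal H3K27ac-only regions. Nearest-gene counts grow with the space around a gene, which was not adjusted for.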
